A study of Mus musculus with 11 samples.

Results

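The ATP-binding cassette (ABC) family was examined in the colon of germ-free and humanized mice. ABC proteins use ATP to move substrates across membranes, and the mouse genes are sorted into subfamilies A to G by sequence. Members were the genes of the count table whose name is Abc, a subfamily letter from a to g, and a number, with at least 10 reads in at least 5 of the 11 mice. Of 50 genes with such a name, 43 met the minimum, and all 43 were among the 19863 genes kept by the low-expression filter. They comprised 12 genes of subfamily A, 8 of B, 9 of C, 4 of D, 1 of E, 3 of F and 6 of G. Of the genes left out, Abcb5 and Abca16 had 0 reads in every mouse, and the bile salt pump Abcb11 had at most 4 reads in a mouse, as did Abcc12 and Abca15. Abca4 was just outside the minimum, with 10 reads or more in 3 mice, and Abca13 reached them in 1 mouse. Just inside, Abca14 reached 10 reads in 6 mice and Abca17 in 10 mice.

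RNA came from the colon of 5 germ-free and 6 humanized mice, all male Swiss Webster animals studied at 8 to 10 weeks. The humanized mice had been born germ-free and were gavaged at 4 to 5 weeks with 300 μL of stool suspension from 1 human donor, so the group stands for a single microbiota. Both groups lived in isolators, singly housed, on an autoclaved diet, and each library is a separate animal. Between 49097005 and 64148538 reads per germ-free mouse and between 39125290 and 54219854 per humanized mouse were counted on genes. Expression is given as RPKM, the reads of a gene divided by its deposited length and by the TMM-normalized size of the library. The log2-fold change (LFC) is that of humanized over germ-free mice with its standard error (SE), n = 5 and 6, and the FDR is the Benjamini–Hochberg value of edgeR's exact test over all 19863 genes, with 0.01 as threshold.

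In the gut, ABC proteins of the apical membrane such as P-glycoprotein return drugs and toxins to the lumen, while others pass conjugates to the blood. Members of subfamilies A and G carry sterols and phospholipids out of cells. Members of subfamily D bring fatty acids into peroxisomes, several of subfamily B work in mitochondria, and subfamilies E and F act on ribosomes and cross no membrane.

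Markers of the cell types of the colon wall were read first. As background, 9.20% of all tested genes were upregulated in humanized mice and 10.1% were downregulated. All 12 epithelial markers, Epcam, Krt8 and Cdx1 among them, were expressed, with summed levels of 4592 to 6037 RPKM in germ-free and 5146 to 7148 RPKM in humanized mice, and 3 of the 12 were higher in humanized mice and 0 lower. Markers of the muscle and connective tissue layers were lower in humanized mice. All 9 smooth muscle markers were downregulated, with summed levels of 280.0 to 856 RPKM in germ-free and 38.0 to 298 RPKM in humanized mice. The same held for 4 of 6 fibroblast markers (70.7 to 119 against 7.76 to 56.9 RPKM), 4 of 4 pericyte markers (29.6 to 56.2 against 3.65 to 18.9 RPKM) and 6 of 7 markers of neurons and glia (3.92 to 6.21 against 0.879 to 2.01 RPKM). Of 6 endothelial markers 0 passed the FDR of 0.01 in either direction (18.3 to 21.6 against 2.68 to 17.6 RPKM), with 4 at lower values in every humanized mouse, and 1 of 7 macrophage markers, Mrc1, was downregulated (52.3 to 68.8 against 11.8 to 72.8 RPKM). Humanized mouse 5 had the lowest sums of the 6 lists just named and the highest epithelial sum. Of 6 surface colonocyte markers 1 was upregulated, the carbonic anhydrase gene Car1 (LFC 1.34), whose group mean was 3043 RPKM in germ-free and 7694 RPKM in humanized mice. The 6 markers summed to 4925 to 7019 RPKM in germ-free and 8626 to 14132 RPKM in humanized mice, while the 5 without Car1 summed to overlapping levels of 2786 to 3342 and 2358 to 3953 RPKM. The largest part of this second sum was Guca2a, with group means of 2309 and 1896 RPKM. The LFC was 1.13 for Slc26a3 (FDR = 0.0316), 0.41 for Krt20, 0.24 for Car4, −0.06 for Cdhr5 and −0.28 for Guca2a, and the median of the 6 was 0.33. Slc26a3 was at 70.4 RPKM in humanized mouse 6 and at 12.1 to 19.9 RPKM in the other humanized mice. Its germ-free range was 8.73 to 13.8 RPKM. All 4 lymphocyte markers were upregulated (14.3 to 62.0 against 88.3 to 569 RPKM), 2 of 6 enteroendocrine markers were upregulated and 2 downregulated (270.4 to 402 against 237 to 364 RPKM), and of 5 adipocyte markers 2 were tested with 0 below the threshold, while Adipoq, Plin1 and Lep were not kept by the filter. In bulk tissue, fewer cells of a type and less RNA per cell cannot be told apart.

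Of the 43 ABC genes, 7 were upregulated in humanized mice (16.3%, against 9.20% of all tested genes) and 10 were downregulated (23.3%, against 10.1%). The remaining 26 did not reach the threshold. The median LFC of the family was 0.05, beside 0.01 over all tested genes. Together 17 of the 43 members were called in either direction, beside 19.3% of all tested genes. Without overlap between the groups were 6 of the 43 members with higher and 11 of the 43 with lower values in humanized mice. The shares over all tested genes were 8.67% and 9.73%, or 18.4% for both directions. Upregulated were Abcb1a, Abcb1b, Abcc3 and Abcg2, which export drugs and conjugates, the heme-related Abcb6, the peroxisomal Abcd3 and the lipid transporter Abca12. Downregulated were the sterol exporters Abca1 and Abcg1, all 5 genes of a cluster of subfamily A on chromosome 11, Abcc6, the channel subunit Abcc9 and the peroxisomal Abcd2.

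**Figure D1:**
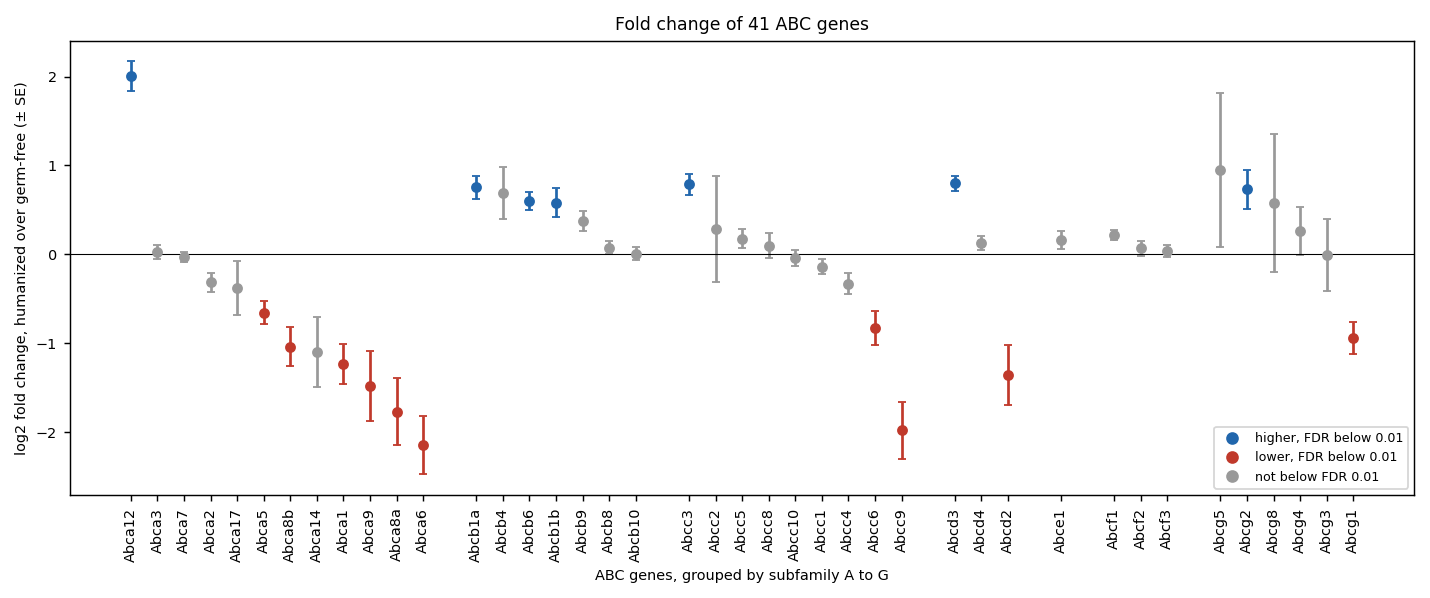
Points show the LFC (log2, humanized over germ-free, n = 6 and 5 mice) of 41 of the 43 ABC genes by subfamily, with bars of 1 SE. Blue marks the 7 genes upregulated and red the 10 downregulated at FDR below 0.01, and 6 of the red points lie in subfamily A.

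The direction of the called genes varied by subfamily, and this variation was not tested. Among all tested genes, 9.20% were upregulated and 10.1% downregulated. Subfamily A had 6 members downregulated and 1 upregulated of 12, with a median LFC of −0.85. Subfamily B had 3 upregulated and 0 downregulated of 8, with a median LFC of 0.48. In subfamily C, 1 was upregulated and 2 were downregulated of 9. Subfamilies D and G each had 1 in either direction, of 4 and 6 genes, and of the 4 genes of E and F 0 passed the threshold. The downregulated members were of low abundance, with a median of their mean RPKM of 1.16, and the upregulated ones had a median of 21.4. The 3 most abundant members, Abcb1a, Abcd3 and Abcc3, made up 47.7% ± 0.959 (SD, n = 5) of the summed RPKM of the family in the germ-free group. In the humanized group they made up 58.2% ± 1.64 (SD, n = 6). The family as a whole took 0.231% to 0.259% of the counted reads in germ-free and 0.262% to 0.342% in humanized mice, ranges that did not overlap. No test was made of these shares.

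Of the 10 drug and conjugate exporters that were tested, 4 were upregulated (40%, beside 9.20% of all tested genes). One other, or 10%, was downregulated, beside 10.1% of all tested genes, and the median LFC was 0.23. Abcb1a (ENSMUSG00000040584, mm10 chr5:8660077-8748575, + strand) is the member with the highest RPKM in both groups and encodes P-glycoprotein together with Abcb1b. Its RPKM was 102, 109, 93.2, 111 and 88.6 in the germ-free mice and ranged from 141 to 235 with a median of 158 in the humanized mice. Every humanized mouse lay above every germ-free mouse, with mouse 5 highest. The means and SD were 101 ± 9.72 (n = 5) and 170.1 ± 35.4 (n = 6), an LFC of 0.75 ± 0.13 (SE; FDR = 8.11e-07). Abcb1b (ENSMUSG00000028970, chr5:8798147-8866314, + strand) lies next to it and was expressed at a far lower level. Its RPKM was 5.78, 5.40, 5.59, 6.05 and 4.92 in germ-free mice and 5.50 to 11.9, with a median of 7.85, in humanized mice. Humanized mouse 3 lay within the germ-free range and the other 5 above it. The LFC was 0.58 ± 0.17 (SE; FDR = 0.00513). This call and that of Abcg2 below were the least stable of the upregulated members. Both were lost in edgeR's quasi-likelihood test (FDR = 0.0205 and 0.0255), without humanized mice 5 and 6 (LFC 0.33 and 0.34), and under scaling by total counts (LFC 0.38 and 0.53).

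Abcc3 (ENSMUSG00000020865, chr11:94343295-94392997), the basolateral exporter MRP3 of glucuronides and bile salts, had RPKM values of 39.9, 36.6, 39.1, 36.0 and 40.6 in germ-free mice. In humanized mice it ranged from 55.3 to 90.0 with a median of 62.7. The groups did not overlap, and mouse 5 was again highest. The mean rose from 38.4 ± 2.04 to 66.4 ± 13.1 (SD), an LFC of 0.79 ± 0.12 (SE; FDR = 1.36e-08). Abcg2 (ENSMUSG00000029802, chr6:58584523-58692869), the apical exporter BCRP of urate and sulfate conjugates, was at 15, 14.6, 14.6, 16.3 and 18 RPKM in germ-free mice and at 15.5 to 40.4, with a median of 22.2, in humanized mice. Humanized mice 5 and 6 were high, at 40.4 and 36.4 RPKM, and mouse 3, at 15.5 RPKM, lay within the germ-free range. The LFC was 0.73 ± 0.22 (SE; FDR = 0.00595). Abcc6 (ENSMUSG00000030834, chr7:45976380-46030302), which mediates ATP release and is known for its loss in a disorder of ectopic mineralization, went the other way. Its RPKM was 5.01, 3.54, 4.13, 3.47 and 3.19 in germ-free mice and 1.39 to 3.0, with a median of 2.06, in humanized mice. The ranges did not overlap, and the LFC was −0.83 ± 0.19 (SE; FDR = 3.92e-04). For the other exporters of the list the LFC was −0.33 for Abcc4, which carries cyclic nucleotides and lay lower in every humanized mouse (FDR = 0.0672), −0.14 for Abcc1, −0.04 for Abcc10, 0.17 for Abcc5 and 0.28 for the apical Abcc2, and 0 of these 5 passed the threshold.

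**Figure D2:**
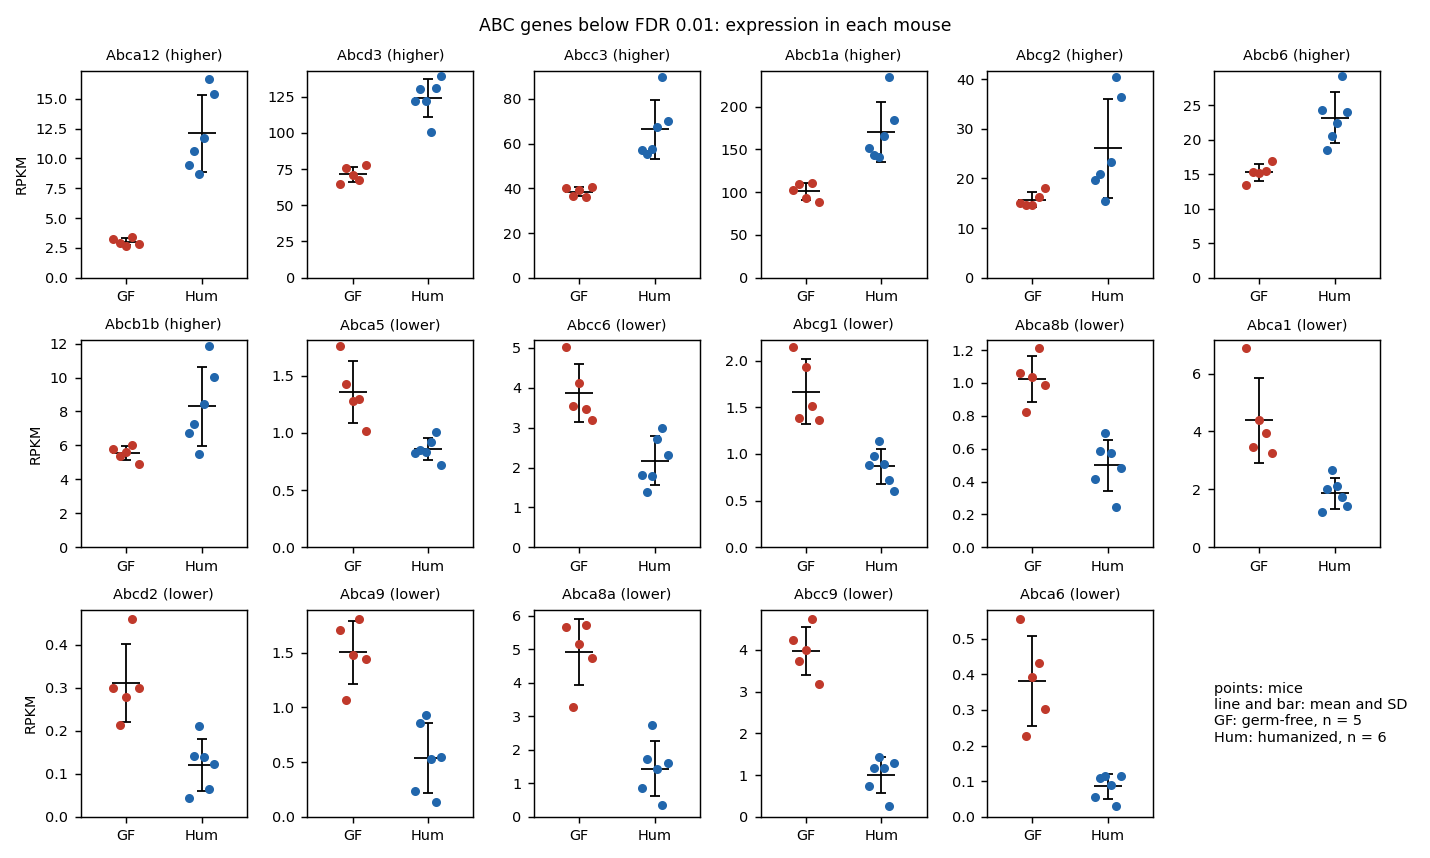
Each panel shows the RPKM of 1 of the 17 ABC genes below FDR 0.01 in every germ-free (GF, red, n = 5) and humanized (Hum, blue, n = 6) mouse, on a linear axis from 0, with mean and SD. Abcb1b and Abcg2 are the 2 genes whose groups overlap.

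Abcb1a and Abcb1b share stretches of sequence and correspond to a single human gene, so their proportion was read in each mouse. The ratio of Abcb1a to Abcb1b RPKM was 17.7, 20.2, 16.7, 18.3 and 18 in germ-free mice and ranged from 18.4 to 25.6 in humanized mice. On the log2 scale the means were 4.18 ± 0.10 (SD, n = 5) and 4.38 ± 0.17 (SD, n = 6). The difference of 0.20 had p = 0.0476 in a two-sided exact permutation test, and p = 0.0952 after adjustment over the 2 ratios tested in the family. In the GENCODE M21 annotation, 13.3% of the 101-base windows of the Abcb1a transcripts and 6.52% of those of Abcb1b also occur in another gene. Abcb1b holds 482 of the 717 such windows of Abcb1a. How the authors' counting treated reads that fit both genes is not given in the sources used here. Gm42686, on the opposite strand, shares 10.1% of the exon bases of Abcb1a, and the libraries are unstranded. The third gene of this locus, Abcb4, which exports phospholipid, had an LFC of 0.69 ± 0.30 (SE; FDR = 0.0956), which was 0.34 without humanized mouse 6. The 3 nearest tested genes on each side were read for comparison, chosen by position alone. Rundc3b (LFC 0.50, FDR = 9.11e-05) and Crot (LFC 0.74, FDR = 1.25e-09), which flank the 3 ABC genes, were upregulated, and the other four had LFC values from −0.04 to 0.21 with FDR values of 0.178 to 0.897.

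The 250 bases before the start of Abcb1b are shown because they belong to the P-glycoprotein gene whose RefSeq start equals the start in the count table. They lie at chr5:8797897-8798146 on the + strand of GRCm38.p6 and come from RefSeq, as do the other sequences given here. Capitals mark matches to CCAAT and GGGCGG on either strand.
Abcb1b: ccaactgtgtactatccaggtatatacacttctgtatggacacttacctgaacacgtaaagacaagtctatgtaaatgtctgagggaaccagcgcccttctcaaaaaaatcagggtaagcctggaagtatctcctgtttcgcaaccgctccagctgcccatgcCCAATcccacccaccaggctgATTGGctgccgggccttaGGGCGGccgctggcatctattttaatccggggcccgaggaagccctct
A CCAAT begins 87 bases before the start, its reverse complement ATTGG 66 bases before, and a GGGCGG 48 bases before. Of the 43 members, 29 matched a RefSeq start in the promoter table. Their 250-base promoters were searched on both strands for the CCAAT box, for GGGCGG, the GC box, and for TATAAA, the TATA box. They were also searched for TGACNNNGC, the core of the antioxidant response element, for GCGTG, the core bound by the aryl hydrocarbon receptor, and for AGGTCA, the unit bound by many nuclear receptors, whose match can overlap one to the antioxidant core. GGGCGG was found in 15 of the 29 (51.7%, beside 32.7% of all 32851 promoters), CCAAT in 8 (27.6%, beside 33.8%) and GCGTG in 10 (34.5%, beside 28.2%). TATAAA and AGGTCA were found in 3 each (10.3%, beside 12.4% and 14% of all promoters) and TGACNNNGC in 2 (6.9%, beside 10.2%). Of the upregulated genes 5 had a promoter in the table, and of the downregulated genes 6. CCAAT was found in 2 of the 5 and 0 of the 6, GGGCGG in 2 and 4, AGGTCA in 2 and 0, TATAAA and GCGTG in 1 and 1 each, and TGACNNNGC in 0 of both, and these differences were not tested. These matches are descriptions of letters and not of bound sites.

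Of the 15 sterol and lipid transporters tested, 7 were downregulated (46.7%, beside 10.1% of all tested genes) and 1 was upregulated (6.67%, beside 9.20%). Their median LFC was −0.31, beside 0.01 over all tested genes. Abca12 (ENSMUSG00000050296, chr1:71242276-71414910, − strand) was the upregulated one and had the highest LFC of the family. It is known for loading glucosylceramides into the lamellar granules of the epidermis. Its RPKM was 3.27, 2.95, 2.64, 3.37 and 2.84 in germ-free mice and 8.71 to 16.7, with a median of 11.2, in humanized mice. The lowest humanized mouse lay far above the highest germ-free mouse, and mice 5 and 6 were highest at 16.7 and 15.4 RPKM. The mean rose 4.01-fold, from 3.01 ± 0.301 to 12.1 ± 3.23 RPKM (SD), with an LFC of 2.0 ± 0.17 (SE; FDR = 6.28e-28). The 250 bases before its start, at chr1:71414911-71415160 on the − strand, held 0 matches to the 6 motifs above, and are shown because this gene changed most among those upregulated.
Abca12: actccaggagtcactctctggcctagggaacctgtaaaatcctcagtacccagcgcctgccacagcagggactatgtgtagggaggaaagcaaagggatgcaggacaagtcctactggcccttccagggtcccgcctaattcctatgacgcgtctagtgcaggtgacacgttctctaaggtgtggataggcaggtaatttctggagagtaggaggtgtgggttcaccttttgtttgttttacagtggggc

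Abca1 and Abcg1 pass cholesterol to lipoproteins and are targets of the liver X receptors (LXR). Abca1 (ENSMUSG00000015243, chr4:53030787-53159895, − strand) was at 6.87, 3.47, 4.4, 3.93 and 3.25 RPKM in germ-free mice and at 1.22 to 2.68, with a median of 1.87, in humanized mice. The groups did not overlap, with germ-free mouse 1 highest. The LFC was −1.23 ± 0.22 (SE; FDR = 1.82e-06). Abcg1 (ENSMUSG00000024030, chr17:31057698-31115777) was at 2.14, 1.39, 1.94, 1.52 and 1.36 RPKM in germ-free mice and at 0.608 to 1.1, with a median of 0.887, in humanized mice. Again every humanized mouse was below every germ-free mouse, and the LFC was −0.94 ± 0.18 (SE; FDR = 8.58e-05). Of 8 LXR targets and genes of the pathway outside the family, 4 were downregulated (50%, beside 10.1% of all tested genes). They were Pltp (LFC −0.82), Scd1 (−0.58), Mylip (−0.57) and the receptor gene Nr1h3 (−0.55). Lpcat3 was upregulated (LFC 0.39), or 12.5% of the list, beside 9.20% of all tested genes. Srebf1, Scd2 and Apoe had LFC values of −0.37, −0.61 and −0.70 and did not pass the threshold. Nr1h2, the gene of the other LXR, was at 24.7 ± 0.915 and 24.9 ± 2.72 RPKM (SD), an LFC of 0.01 (FDR = 0.952). The window before Abca1, at chr4:53159896-53160145 on the − strand, is shown for this downregulated LXR target, with GGGCGG and TATAAA in capitals.
Abca1: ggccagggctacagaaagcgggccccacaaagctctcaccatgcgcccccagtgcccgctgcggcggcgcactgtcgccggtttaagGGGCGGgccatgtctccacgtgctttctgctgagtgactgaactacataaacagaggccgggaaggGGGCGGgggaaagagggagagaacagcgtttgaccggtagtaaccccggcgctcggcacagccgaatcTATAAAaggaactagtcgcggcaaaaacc
The GGGCGG matches begin 163 and 97 bases before the start and TATAAA 29 bases before it.

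Abca8b, Abca8a, Abca9, Abca6 and Abca5 lie side by side at chr11:109932190-110337716 and are little studied lipid transporters. All 5 were downregulated, and in each case every humanized mouse was below every germ-free mouse. Abca8a (ENSMUSG00000041828, chr11:110025634-110095978) had the highest level among them, at 5.66, 3.29, 5.16, 5.72 and 4.74 RPKM in germ-free mice. In humanized mice it ranged from 0.346 to 2.73 with a median of 1.51, and the LFC was −1.77 ± 0.37 (SE; FDR = 5.23e-05). Humanized mouse 5 was lowest and mouse 3 highest. Abca6 (ENSMUSG00000044749, chr11:110176820-110251776) had the lowest LFC of the family. It was at 0.555, 0.226, 0.393, 0.433 and 0.302 RPKM in germ-free mice and at 0.0312 to 0.115, with a median of 0.100, in humanized mice, where mouse 5 was again lowest. The LFC was −2.15 ± 0.33 (SE; FDR = 1.68e-08). Abca9 (ENSMUSG00000041797, chr11:110100749-110168196) was at 1.71, 1.06, 1.48, 1.81 and 1.44 RPKM in germ-free mice and at 0.139 to 0.927, with a median of 0.538, in humanized mice. Its LFC of −1.48 ± 0.39 (SE; FDR = 0.00173) came with a large spread, as the CV of the humanized mice was 59.0%, and had FDR = 0.0148 in the quasi-likelihood test. Abca8b (ENSMUSG00000020620, chr11:109932190-109995845) was at 1.06, 0.821, 1.04, 1.21 and 0.988 RPKM in germ-free mice and at 0.244 to 0.693, with a median of 0.527, in humanized mice. Mouse 5 was lowest here too, and the LFC was −1.04 ± 0.22 (SE; FDR = 1.79e-04). Abca5 (ENSMUSG00000018800, chr11:110269369-110337716) was at 1.76, 1.43, 1.27, 1.30 and 1.02 RPKM in germ-free mice and at 0.722 to 1.01, with a median of 0.842, in humanized mice. It differed from the other four in that humanized mouse 5 had the highest value of its group, at 1.01 RPKM just under the lowest germ-free mouse. The LFC was −0.66 ± 0.13 (SE; FDR = 2.12e-04).

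Fibroblast markers, summed above, moved in the same direction, and their part in the change of the cluster was not tested. Genes beside the cluster all had negative LFC values, and some of them passed the threshold. Of the 3 nearest tested genes on either side, chosen by position alone, Fam20a (LFC −1.22, FDR = 0.00262), Map2k6 (LFC −0.44, FDR = 4.49e-04) and Kcnj2 (LFC −1.0, FDR = 0.00823) were downregulated. Wipi1, Prkar1a and Gm11675 had LFC values of −0.23, −0.15 and −0.10 with FDR values of 0.102, 0.113 and 0.797. Gm11697 lies within the cluster, on the strand opposite to Abca8b with 3.25% of the exon bases of Abca8b shared, and had an LFC of −0.39 (FDR = 0.396). The library kit does not mark strand, so reads of the shared bases cannot be assigned to a strand.

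The other lipid transporters had smaller differences or wide spreads. Abca3, the surfactant lipid transporter of the lung, had the highest RPKM of subfamily A in the colon, at 19.6, 18.9, 17.8, 17.2 and 17.3 in germ-free mice and 16.2 to 22.0, with a median of 18.2, in humanized mice. The ranges overlapped and the LFC was 0.03 ± 0.08 (SE; FDR = 0.876). Abca7 had an LFC of −0.03 (FDR = 0.82), Abca2, a lysosomal lipid transporter, of −0.31 (FDR = 0.0418), and Abcg4 of 0.27 (FDR = 0.557). Abcg5 and Abcg8 form a heterodimer that secretes plant sterols and cholesterol into the gut lumen. Abcg5 was at 1.17, 0.739, 0.384, 0.348 and 0.158 RPKM in germ-free mice and at 0.0992 to 4.44, with a median of 0.546, in humanized mice. Abcg8 was at 1.04, 0.525, 0.556, 0.282 and 0.164 RPKM in germ-free mice and at 0.108 to 3.0, with a median of 0.296, in humanized mice. Humanized mouse 6 was far above the other ten mice for both genes. With all mice the LFC was 0.95 ± 0.86 for Abcg5 and 0.58 ± 0.78 for Abcg8 (SE; FDR = 0.454 and 0.64), and without humanized mouse 6 the sign turned, to −0.45 and −0.69. The log2 ratio of Abcg5 to Abcg8 was 0.08 ± 0.40 (SD, n = 5) in the germ-free and 0.26 ± 0.72 (SD, n = 6) in the humanized group, with p = 0.615 in a two-sided exact permutation test, both before and after adjustment over the 2 ratios. Humanized mouse 6 was also the highest mouse for the phospholipid exporter Abcb4, at 2.25 RPKM, and for the conjugate exporter Abcc2, at 1.79 RPKM. The LFC of Abcc2, 0.28 with all mice, was −0.58 without that mouse.

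**Figure D3:**
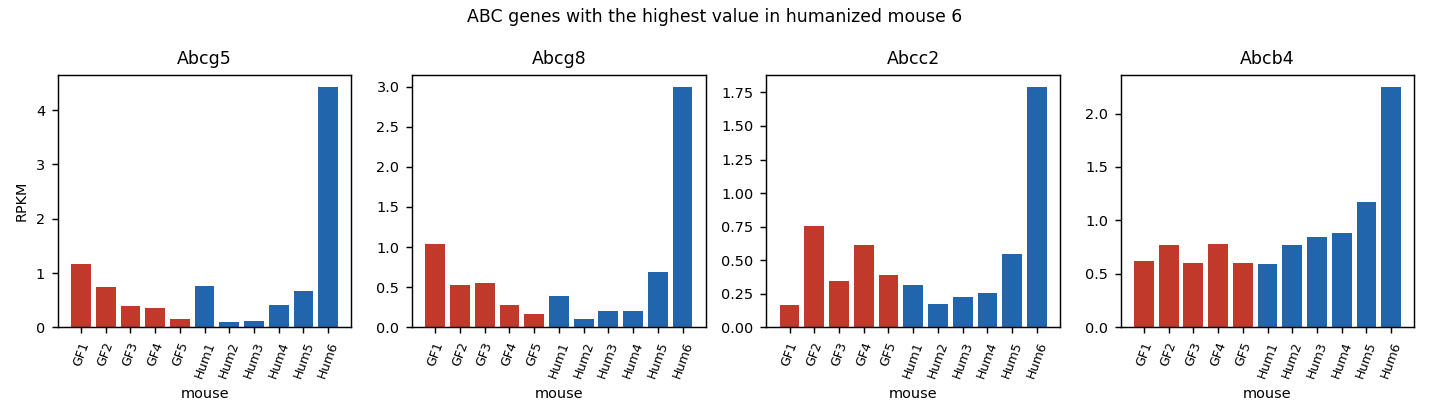
Bars give the RPKM of Abcg5, Abcg8, Abcc2 and Abcb4 in each germ-free (red) and humanized (blue) mouse, on linear axes from 0. Humanized mouse 6 holds the highest bar in all 4 panels, at 4.44, 3.0, 1.79 and 2.25 RPKM.

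Abcg5 and Abcg8 are read away from each other. The 109 bases between the RefSeq start of Abcg5 and 1 of the 2 RefSeq starts of Abcg8 are shown on the + strand. They lie at chr17:84683012-84683120 and are shown because these starts bound them. The count table places the start of Abcg8 at chr17:84676302, within Abcg5 (chr17:84658234-84683011). In GENCODE M21 the exons of the pair share 82 bases on opposite strands. The libraries are unstranded, and the ratio above was not adjusted for reads on these bases. Capitals mark TTTATA, the reverse complement of TATAAA.
Abcg5-Abcg8 spacer: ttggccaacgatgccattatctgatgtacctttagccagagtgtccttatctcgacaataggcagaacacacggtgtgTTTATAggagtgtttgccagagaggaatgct

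Of the 5 peroxisomal and lysosomal members, 1 was upregulated and 1 downregulated (20% each, beside 9.20% and 10.1% of all tested genes). Abcd3 (ENSMUSG00000028127, chr3:121758910-121815215) encodes PMP70, which carries branched fatty acids and bile acid precursors into peroxisomes. Its RPKM was 64.7, 75.4, 71.0, 67.7 and 77.7 in germ-free mice and 100.4 to 139, with a median of 126, in humanized mice. The groups did not overlap, and humanized mouse 6 was highest. The mean rose from 71.3 ± 5.35 to 124 ± 13.3 RPKM (SD), an LFC of 0.80 ± 0.09 (SE; FDR = 7.50e-15). Abcd2 (ENSMUSG00000055782, chr15:91145884-91191807), a transporter of very long-chain fatty acids, was at 0.298, 0.214, 0.278, 0.461 and 0.30 RPKM in germ-free mice and at 0.0443 to 0.210, with a median of 0.131, in humanized mice. The highest humanized mouse, mouse 3, lay just below the lowest germ-free mouse, and the LFC was −1.36 ± 0.34 (SE; FDR = 9.09e-04, and 0.0107 in the quasi-likelihood test). The lysosomal cobalamin transporter Abcd4 had an LFC of 0.13 (FDR = 0.393) and the lysosomal peptide transporter Abcb9 of 0.37 (FDR = 0.0179). Of 9 partners of the peroxisome, 4 were upregulated and 0 downregulated, beside 9.20% and 10.1% of all tested genes. The 4 were the β-oxidation genes Acaa1b (LFC 1.09), Ehhadh (0.54) and Hsd17b4 (0.49) and the thioesterase Acot8 (0.56). The biogenesis genes Pex3, Pex5, Pex16 and Pex19 had LFC values of 0.11, 0.06, 0.29 and 0.15 and the thiolase Acaa1a of 0.22, which did not pass the threshold.

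Of the 4 mitochondrial and heme-related genes, Abcb6 (ENSMUSG00000026198, chr1:75171717-75180392), a porphyrin transporter, was upregulated. Its RPKM was 13.4, 15.4, 15.1, 15.5 and 16.8 in germ-free mice and 18.4 to 29.2, with a median of 23.2, in humanized mice. The groups did not overlap, and the LFC was 0.60 ± 0.10 (SE; FDR = 2.60e-06). In GENCODE M21, 55.2% of its exon bases are shared with Gm29253 on the same strand, and how reads on shared bases were counted is not given in the sources used here. Abcb8 and Abcb10, which lie in the mitochondrial inner membrane, had LFC values of 0.08 and 0.01, with FDR values of 0.552 and 0.98.

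The soluble members act on ribosomes and translation. Abce1, needed for ribosome recycling, was at 17.3, 22.9, 18.6, 21.6 and 23.2 RPKM in germ-free mice and at 19.9 to 26.2, with a median of 23.7, in humanized mice. These ranges overlapped, and the LFC was 0.16 ± 0.10 (SE; FDR = 0.274). Abcf1 was at 18.6, 20.9, 21.1, 21.2 and 20.8 RPKM in germ-free mice and at 21.9 to 26.6, with a median of 23.7, in humanized mice. It lay higher in every humanized mouse, but its LFC of 0.22 ± 0.06 (SE; FDR = 0.0146) missed the threshold. Abcf2 and Abcf3 had LFC values of 0.07 and 0.04.

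Abcc8 and Abcc9 encode the sulfonylurea receptors SUR1 and SUR2, which do not transport but regulate potassium channels. Abcc9 (ENSMUSG00000030249, chr6:142587862-142702274, − strand) pairs with the channel subunit Kcnj8 in vascular muscle and pericytes. It was at 4.23, 3.74, 4.00, 4.74 and 3.19 RPKM in germ-free mice and at 0.260 to 1.44, with a median of 1.16, in humanized mice. The groups did not overlap, and humanized mouse 5 was far below the others. The mean fell from 3.98 ± 0.575 to 1.01 ± 0.435 RPKM (SD), an LFC of −1.98 ± 0.32 (SE; FDR = 5.53e-08). Kcnj8 was downregulated too, with an LFC of −1.63 (FDR = 2.75e-05), as were all 4 pericyte markers and all 9 smooth muscle markers, whose part in the change of Abcc9 was not tested. Abcc8 had an LFC of 0.10 (FDR = 0.725), and its channel partner Kcnj11 of 0.03 (FDR = 0.974). The window before Abcc9, at chr6:142702275-142702524 on the − strand, is shown for this downregulated channel subunit. Capitals mark CCGCCC, the reverse complement of GGGCGG, 79 bases before the start.
Abcc9: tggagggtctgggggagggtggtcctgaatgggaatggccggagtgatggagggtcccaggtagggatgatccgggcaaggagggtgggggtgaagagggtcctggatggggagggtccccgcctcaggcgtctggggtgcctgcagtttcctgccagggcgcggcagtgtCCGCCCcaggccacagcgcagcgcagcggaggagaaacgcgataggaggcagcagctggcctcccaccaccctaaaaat

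The 3 tested rodent genes of unclear transport had group means of at most 0.349 RPKM. Abca14 had an LFC of −1.10 ± 0.39 (SE; FDR = 0.0311), Abca17 of −0.38 (FDR = 0.437) and Abcg3 of −0.01 (FDR = 0.998). Outside the name rule, the ABC proteins Tap1 and Tap2, which load peptides for antigen presentation, and the chloride channel Cftr had LFC values of 0.30, 0.25 and 0.11, and 0 of the 3 passed the threshold. Among 16 regulators and partners, the xenobiotic receptor genes Nr1i2 (LFC 0.36, FDR = 0.00779) and Nr1i3 (LFC 0.34, FDR = 0.00505) were upregulated, as were Pparg (LFC 0.75, FDR = 3.26e-12) and Hnf4a (LFC 0.43, FDR = 6.08e-04). Nr1h3 and Kcnj8, given above, were the 2 downregulated. The upregulated genes made up 25% of this list and the downregulated 12.5%, beside 9.20% and 10.1% of all tested genes. The LFC was 0.12 for Nfe2l2, −0.23 for Ahr, 0.19 for the bile acid receptor gene Nr1h4 and −0.03 for Ppara, and 0 of these 4 passed the threshold.

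Within the humanized group, the same mice recurred at the ends of the ranges. Mouse 5 had the highest value of 6 of the 7 upregulated members, the exception being Abcd3. It had the lowest value of 5 of the 10 downregulated ones, namely Abca6, Abca8a, Abca8b, Abca9 and Abcc9. For 2 others of the 10, Abca5 and Abcc6, the same mouse was the highest of its group. How often mouse 5 lay at an end over all genes was not counted. Mouse 3 had the highest value of 7 of the 10 downregulated members, and also the highest sums of the fibroblast, endothelial and macrophage markers and the lowest epithelial sum of its group. The median CV of the members was 10.0% in germ-free and 19.7% in humanized mice, beside 10.4% and 16.5% over all tested genes. With both humanized mice 5 and 6 left out, all 10 downregulated members stayed below the FDR of 0.01, and 5 of the 7 upregulated ones did. The part of the muscle, connective tissue and other marker differences in these results was not tested. When libraries were scaled to the geometric mean of the 12 epithelial markers in place of TMM, which moved the median LFC of all genes to −0.22, the 10 downregulated members kept FDR values below 0.01 and so did Abca12, Abcd3, Abcc3, Abcb1a and Abcb6. Abcb1b and Abcg2 missed the threshold there, with LFC values of 0.32 and 0.46, and Abca2 passed it at −0.54.

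**Figure D4:**
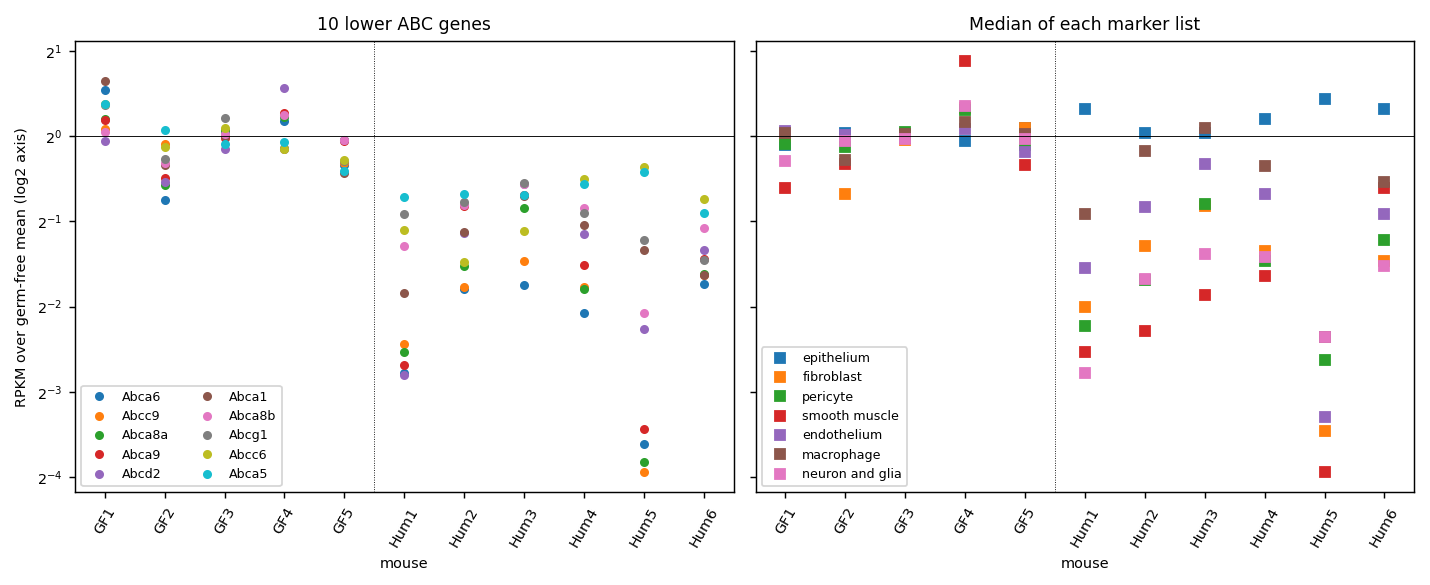
For each mouse (GF, germ-free; Hum, humanized) the left panel plots the RPKM of the 10 downregulated ABC genes and the right panel the median over each of 7 cell type marker lists, all divided by the germ-free mean, on a log2 axis. All 10 genes lie below the germ-free mean in all 6 humanized mice, as do the marker lists other than epithelium and, in mouse 3, macrophage, and the lowest point of each panel is that of mouse 5.

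**Figure D5:**
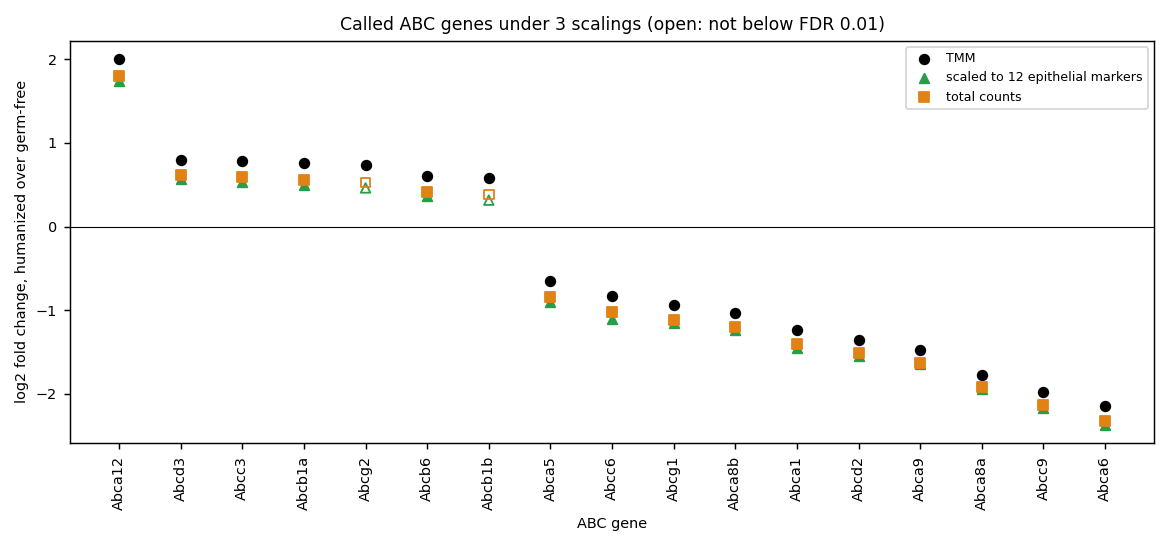
The LFC (log2, humanized over germ-free, n = 6 and 5) of the 17 called ABC genes is plotted under TMM, total-count and epithelial-marker scaling, with open symbols where FDR was not below 0.01. Both other scalings place all 17 genes lower than TMM does, and Abcb1b and Abcg2 are open under both.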

How the data were processed

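Colonic RNA of 5 germ-free and 6 humanized mice was sequenced as 101 bp paired-end reads from unstranded libraries. Per the paper's methods and the submitters' processing notes, the authors converted base calls with bcl2fastq 2.17.1.14, aligned reads to mm10 with TopHat2 2.1.0 and Bowtie2 2.2.3, and counted reads per gene with featureCounts of Subread 1.4.6-p5. They deposited the counts of 43346 genes as whole numbers without normalization, with gene positions and lengths. The release of the gene annotation, the strand setting and the treatment of reads that fit several genes are not given in the sources used here.

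The steps of the study's methods were run with a different version of edgeR, 4.0.16 in R 4.3.3: filterByExpr without changed settings (min.count of 10, min.total.count of 15, large.n of 10, min.prop of 0.7), which kept 19863 genes, then TMM, estimateDisp and exactTest. An FDR (Benjamini–Hochberg) under 0.01 called a gene. SE values of the LFC come from edgeR's quasi-likelihood fit. Ratios of a pair of genes were compared by two-sided exact permutation over the 462 splits of the mice, which can give p = 0.00216 at the smallest.

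Groups follow the sample labels, and no mouse was left out. Total counts of 39125290 to 64148538 per mouse set the precision of low genes. The most similar libraries of a group differed by a mean chi-square of 21.2 per gene, so none was a repeat of another. The numbers of the mice were checked for pairing: deviations of same-numbered mice from their group means correlated at −0.133 to 0.0910, so they were not treated as pairs. The alternatives were the quasi-likelihood test, DESeq2 1.42.0, RLE, upper-quartile, total-count and epithelial-marker scaling, 2 other filters, 2 other thresholds, leaving out each mouse and a replicate block. Leaving out humanized mice 5 and 6 together and the unblocked fit of the numbered mice were added after the data were seen. The script was tested on simulated data.

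Members, gene lists and tests were chosen with earlier results of these data known. Values of each germ-free mouse, with the range and median of the humanized mice, are given for members below FDR 0.01, for the most abundant member of each subfamily, and, chosen after their values were seen, for Abcg5 and Abcg8, while genes outside the family come from fixed lists or, where stated, from their position. Results of some single genes are left out. Emr1 and Igj in the table were read as Adgre1 and Jchain by gene ID. Exon overlaps are from GENCODE M21 and promoters from RefSeq on GRCm38.p6.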

Additional observations from a re-analysis of the deposited data

Results flagged for a closer look

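In 9 of the 86 groups of RPKM values (43 members in each group of mice), the highest or lowest mouse stood apart from the others by Dixon's criterion at its 95% critical value. Chance alone would give about 4.3 such groups. The value given is the gap to the nearest mouse divided by the range of the group.

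Humanized mouse 6 was far above the other humanized mice for Abcg5 (4.44 RPKM, next 0.753, value 0.849) and for its partner Abcg8 (3.0 RPKM, next 0.690, value 0.799). The same mouse was highest for Abcc2 (1.79 RPKM, next 0.550, value 0.766) and for Abcb4 (2.25 RPKM, next 1.17, value 0.651). Humanized mouse 5 was highest for Abcb10 (15.5 RPKM, next 12.9, value 0.629) and lowest for Abcc4 (1.32 RPKM, next 1.95, value 0.743). Humanized mouse 3 was highest for Abca14 (0.0787 RPKM, next 0.0365, value 0.758). Among the germ-free mice, mouse 1 was lowest for Abcf1 (18.6 RPKM, next 20.8, value 0.843) and mouse 4 for Abcg4 (0.359 RPKM, next 0.420, value 0.827). None of these 9 genes was below FDR 0.01 in edgeR's exact test.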

How the results depend on the processing

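Of the 898 single-gene LFC values under 22 settings, 798 kept their direction and their side of the threshold, 40 lost significance, 10 gained it and 50 changed sign. The sign changes concerned members that were not called. The count of 7 upregulated and 10 downregulated members became 5 and 8 in the quasi-likelihood test, 9 and 10 in DESeq2, 7 and 10 with RLE, upper-quartile scaling or no filter, 7 and 8 with at least 10 counts in every mouse (39 members tested, without Abca6 and Abcd2), 5 and 11 under total-count or epithelial-marker scaling, and 9 and 12 at FDR below 0.05. With an absolute LFC above 1 they were 1 and 7. Leaving out each mouse gave 5 to 8 upregulated and 10 to 12 downregulated members. The call of Abcb1b was lost without any 1 of the germ-free mice and without humanized mouse 4 or 6, and that of Abcg2 without germ-free mouse 1, 2, 3 or 4 or humanized mouse 5 or 6. Without humanized mouse 5, Abcb9 and Abcf1 were gained, and without humanized mouse 3, Abca2 and Abca14. Without humanized mice 5 and 6 together, Abcb1b and Abcg2 were lost and Abcb9 and Abcf1 gained. The causes of these shifts were not tested.

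The numbers of the mice do not pair them, as 1 of 5 correlated best with its own number. With a replicate block in the quasi-likelihood test of the 10 numbered mice, 4 members were upregulated and 2 downregulated, beside 5 and 6 in the same mice without the block. The log2 ratio of Abcb1a to Abcb1b differed by 0.23 with the replicate block (exact sign-flip test, p = 0.125), and as a linear ratio of counts by 3.51 (exact permutation test, p = 0.0519). Leaving out each mouse gave differences of 0.14 to 0.24 with exact permutation p from 0.0190 to 0.124, under 0.05 only without germ-free mouse 2 or humanized mouse 6. For Abcg5 to Abcg8 the same range was 0.030 to 0.40.

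Among the uncalled members, LFC values that changed sign under total-count scaling, which moved the median of all genes to −0.18, were −0.16 for Abca3, −0.19 for Abcb10, −0.11 for Abcb8, −0.0090 for Abcc5, −0.083 for Abcc8, −0.058 for Abcd4, −0.023 for Abce1, −0.12 for Abcf2 and −0.14 for Abcf3. Under epithelial-marker scaling they were −0.22 for Abca3, −0.23 for Abcb10, −0.16 for Abcb8, −0.0065 for Abcc2, −0.068 for Abcc5, −0.13 for Abcc8, −0.11 for Abcd4, −0.051 for Abce1, −0.0078 for Abcf1, −0.16 for Abcf2 and −0.19 for Abcf3. Upper-quartile scaling gave −0.015 for Abca3 and −0.033 for Abcb10, and 10 counts in every mouse −0.018 for Abcb10. Without humanized mice 5 and 6 the values were −0.028 for Abca3, −0.050 for Abcb10, −0.91 for Abcc2, 0.098 for Abcg3, −0.70 for Abcg5 and −1.18 for Abcg8. The replicate block gave −0.52 for Abcc2, −0.53 for Abcg5 and −0.76 for Abcg8, and the same mice without it −0.58, −0.45 and −0.68. Over the mice left out in turn, the range was −0.032 to 0.055 for Abca3, −0.057 to 0.035 for Abcb10, −0.086 to 0.0066 for Abcc10, −0.58 to 0.55 for Abcc2, −0.25 to 0.19 for Abcg3, −0.45 to 1.41 for Abcg5 and −0.69 to 1.01 for Abcg8. The depth limits what can be read of members with few reads, such as Abca14 and Abca17 with 192 and 190 reads over all mice. Reads, proteins and transport were not analysed here, and the group of humanized mice stands for 1 donor.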
